A study of Mus musculus with 2 samples.

Results

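Sprr1a, Sprr2h, Sprr4 and S100a7a are 4 epidermal differentiation genes of mouse chromosome 3, and they make up 4 of the 4183 rows in the authors' deposited table of dorsal skin. They were picked by symbol, with their group means already known, so the levels below describe the genes that were chosen and nothing is tested on them. The tested skin came from C57BL/6 mice aged 18 to 20 months that received red light at 8 J/cm² once a day for 28 days. The comparison skin came from untreated C57BL/6 mice of the same age. GEO holds 1 sample per group, the number of animals behind each is not stated, and the sources used here give no wavelength.

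Small proline-rich (Sprr) proteins are soluble precursors that transglutaminases join to loricrin, involucrin and other proteins beneath the membrane of a dying keratinocyte, which builds the cornified envelope of the epidermis. They are known as genes that keratinocytes turn on in stress, wounding and barrier damage, and some are also made in the hair follicle. S100a7a, also called S100a15 in the mouse, is a calcium-binding S100 protein of keratinocytes that is released in inflamed skin and attracts leukocytes. All 4 genes lie in the epidermal differentiation complex, a chromosomal cluster of S100, Sprr, late cornified envelope (Lce) and filaggrin-type genes.

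The repeat that gives the Sprr family its name can be read in the coding sequences of GENCODE M21 (GRCm38). Shifting each coding sequence against itself by up to 60 bases, in steps of whole codons, gave the best self-match at 24 bases for Sprr1a (63.0% of bases identical) and at 27 bases for Sprr2h (66.7%). Sprr4 matched itself much less well, with 38.6% at 24 bases, and S100a7a reached 32.6% at best. The lines below show 4 successive units of Sprr1a (bases 208 to 303 of its coding sequence) and of Sprr2h (bases 100 to 207). These 2 genes had the strongest self-match over the whole coding sequence. No such stretch of units was sought in Sprr4 or S100a7a. Capitals mark positions that are not the same in all 4 units.
Sprr1a unit 1: gagccctgcAaCccCaaggtgcca
Sprr1a unit 2: gagccctgcCaGccTaaggtgcca
Sprr1a unit 3: gagccctgcCaGccTaaggtgcca
Sprr1a unit 4: gagccctgcAaCccCaaggtgcca
Sprr2h unit 1: gagccttgtcctcccccaaagtgcAcT
Sprr2h unit 2: gagccttgtcctcccccaaagtgcCcA
Sprr2h unit 3: gagccttgtcctcccccaaagtgcCcA
Sprr2h unit 4: gagccttgtcctcccccaaagtgcCcA
In Sprr1a 21 of the 24 positions were the same in all 4 units, and in Sprr2h 25 of the 27. These repeats did not make the transcripts ambiguous between genes at a length of 50 bases. None of the 757 distinct runs of 50 bases in the Sprr1a transcript, the 656 in Sprr2h and the 182 in Sprr4 occurred in a transcript of any other GENCODE gene on either strand. In S100a7a 85 of 1231 such runs, or 6.90%, were found in other genes, spread over 227 of them. The sources used here do not give the read length, so shorter reads may still have been shared.

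All 4 genes were higher in red light skin than in untreated skin, on a scale of the authors' mean FPKM (read fragments divided by transcript length and library size). Of all 4183 rows, 38.7% were higher after red light, and nothing is read from the members' count, since the same means chose them. Every member is labelled UP in the authors' deposited table, and each ratio lay within 0.012 on the log2 scale of the mean of the rows next to it, in a table that falls in order of ratio. The table gives 1 mean per group and no spread, so no difference here could be set against variation between animals and no p-value is given. The table lists only genes that differ by about 2-fold or more, and in bulk skin fewer cells of a type and less RNA per cell cannot be told apart.

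Sprr1a, a cross-bridging envelope precursor that is also induced in injured nerve cells, had by far the highest level of the 4 genes. Its mean was 2092 FPKM in red light skin and 215 FPKM in untreated skin, a difference of 1877 FPKM and a ratio of 9.72. Its level ranked 12th of all rows in red light skin and 99th in untreated skin. Sprr1a thus held a high level in both groups, unlike its company at the top of the red light column. The other 14 of the 15 highest rows in red light skin had between 2.92 and 15.1 FPKM in untreated skin and ratios of 225 to 533. Of these 14 rows, 7 were keratin-associated proteins of the hair shaft and 3 were inner root sheath keratins.

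Sprr2h, a member of the Sprr2 subgroup, had 51.96 FPKM in red light skin and 3.53 FPKM in untreated skin, a ratio of 14.7. Sprr4, which in human skin is known to be induced by ultraviolet light, had 37.6 FPKM in red light skin and 2.74 FPKM in untreated skin, a ratio of 13.7. Both therefore sat near each other at both ends of the comparison, and Sprr1a exceeded Sprr2h by 40.3 times in red light skin and by 60.9 times in untreated skin. The 3 Sprr ratios spanned 0.60 on the log2 scale. Their FPKM summed to 2182 in red light skin and 221 in untreated skin, and Sprr1a supplied 95.9% of the sum in red light skin and 97.2% of that in untreated skin. The GENCODE model of Sprr4 is 231 bases long and holds coding sequence only, against 806 bases for Sprr1a, 752 for Sprr2h and 1280 for S100a7a. A level per length depends on that model, and the annotation used by the authors is not given.

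S100a7a had the lowest level of the 4 in untreated skin and the second highest in red light skin. Its mean was 102.8 FPKM in red light skin and 1.03 FPKM in untreated skin, a ratio of 99.8 (log2 6.64). With 1 FPKM added to both means the log2 ratio was 5.68, because the untreated mean is itself near 1 FPKM. The gain in level was 101.8 FPKM, well below the 1877 FPKM of Sprr1a, so the order of the members by ratio is not their order by level. Among the 1617 rows that were higher in red light skin, 86.4% had a smaller ratio than S100a7a. The same share was 77.4% for Sprr2h, 76.6% for Sprr4 and 73.5% for Sprr1a.

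**Figure D1:**
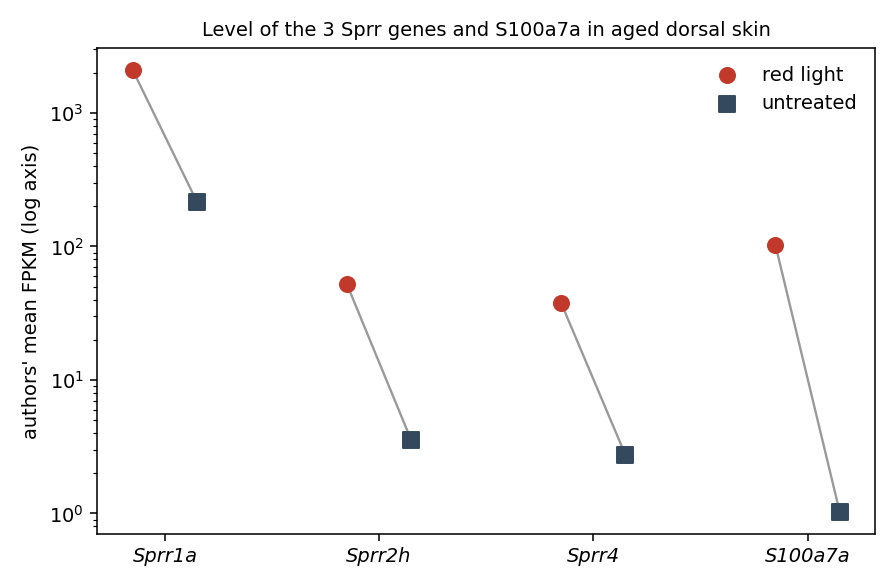
Authors' mean FPKM (log axis) of each gene in red light skin (circles) and in untreated skin (squares), 1 mean per group with no error bars available. Sprr1a is the highest of the 4 in both groups, at 2092 FPKM in red light skin and 215 FPKM in untreated skin, and S100a7a has the steepest line, at 102.8 FPKM in red light skin and 1.03 FPKM in untreated skin.

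The hair list in the same table bears on the scale. The 84 listed hair shaft and inner root sheath genes summed to 67937 FPKM in red light skin and 602 FPKM in untreated skin. On a relative scale a larger share for some genes leaves a smaller share for others. A sum of FPKM is not an amount of RNA, and how far other values were lowered was not tested. When means were divided by the table total without those genes, the median log2 ratio of all rows was −0.86 in place of −1.21. That total was 99088 FPKM in red light skin and 126424 FPKM in untreated skin. It includes the skeletal muscle genes given below, which summed to 3213 and 18777 FPKM. S100a3, a hair cuticle gene outside the 84, also stayed in it, at 2471 FPKM in red light skin and 7.84 FPKM in untreated skin. So did Prr9, at 2819 FPKM in red light skin and 9.26 FPKM in untreated skin. This scaling therefore neither removes all hair genes nor isolates them. Totals here cover the listed rows only, not a whole library. On this scaling the member ratios were 12.4 for Sprr1a, 18.8 for Sprr2h, 17.5 for Sprr4 and 127 for S100a7a. Divided by the total of all rows, they were 7.40, 11.2, 10.5 and 75.9, and the median of all rows was −1.61.

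Along the chromosome, the Sprr genes stood beside a block of genes with the opposite direction. RefSeq (GRCm38.p6, used for names and gene order only) places 101 genes from S100a1 to S100a10, and 30 of them had a row, 14 higher and 16 lower in red light skin. Without the 4 members, which were chosen as higher, 10 of 26 were higher, or 38.5%, about the 38.7% of all rows. Sprr1a, Sprr4 and Ivl are direct neighbours with no gene between them. Ivl encodes involucrin, an early scaffold of the envelope, and had 73.3 FPKM in red light skin and 23.7 FPKM in untreated skin. Past Ivl, the next 11 listed genes were all lower, among them all 10 listed Lce genes, whose products join the envelope late. Lce1m, the highest of them in untreated skin, had 95.2 FPKM in red light skin and 424 FPKM in untreated skin. Lce1a1 and Lce1a2 were 2.07-fold and 2.33-fold lower in red light skin, and Lce3b was 23.6-fold lower, at 0.0533 FPKM in red light skin and 1.26 FPKM in untreated skin. In this stretch the change from higher to lower rows thus fell between Ivl and Lce1a1, with no row of either direction between them. The direction also changed elsewhere in the span. Lor, before the Sprr genes, was lower and Crnn, after the Lce genes, was higher.

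Not every Sprr gene can be placed on this map. RefSeq has 17 Sprr symbols from Sprr2a1 to Sprr4, pseudogenes included, and only Sprr2h, Sprr1a and Sprr4 had a row. The 13 others named in the family list, such as Sprr1b, Sprr3 and Sprr2a1, had none, which says nothing of their change beyond the authors' listing.

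S100a7a lies among the S100 genes at the other end of the cluster. Of 16 other S100 genes looked up, 5 had a row, 4 higher and 1 lower in red light skin, with a median log2 ratio of 1.44. S100a3, an S100 protein of the hair cuticle, had 2471 FPKM in red light skin and 7.84 FPKM in untreated skin, and its ratio of 315 was the only one of the 5 above that of S100a7a. S100a16 and S100a14, both widely made in epithelia, had ratios of 2.77 and 2.72. S100a4, a marker of fibroblasts and leukocytes, had 93.7 FPKM in red light skin and 271 FPKM in untreated skin. S100a8 and S100a9, the S100 pair of inflamed epidermis and neutrophils, had no row.

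Other genes of the complex split widely. Of 17 further symbols of the complex looked up, outside the S100, Sprr and Lce families, 9 had a row, 5 higher and 4 lower in red light skin. Among those without a row, the symbol Loricrin names the same gene as Lor, which had a row. The span holds 2 more rows that were not in this list, Tdpoz8 with a log2 ratio of 3.67 and 2310050C09Rik with −1.92. Crnn, Prr9 and Tchh had ratios of 511, 305 and 283, far above those of the Sprr genes, and Tchh encodes trichohyalin of the inner root sheath. Lor, which encodes the loricrin to which Sprr proteins are joined, had 188 FPKM in red light skin and 678 FPKM in untreated skin.

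**Figure D2:**
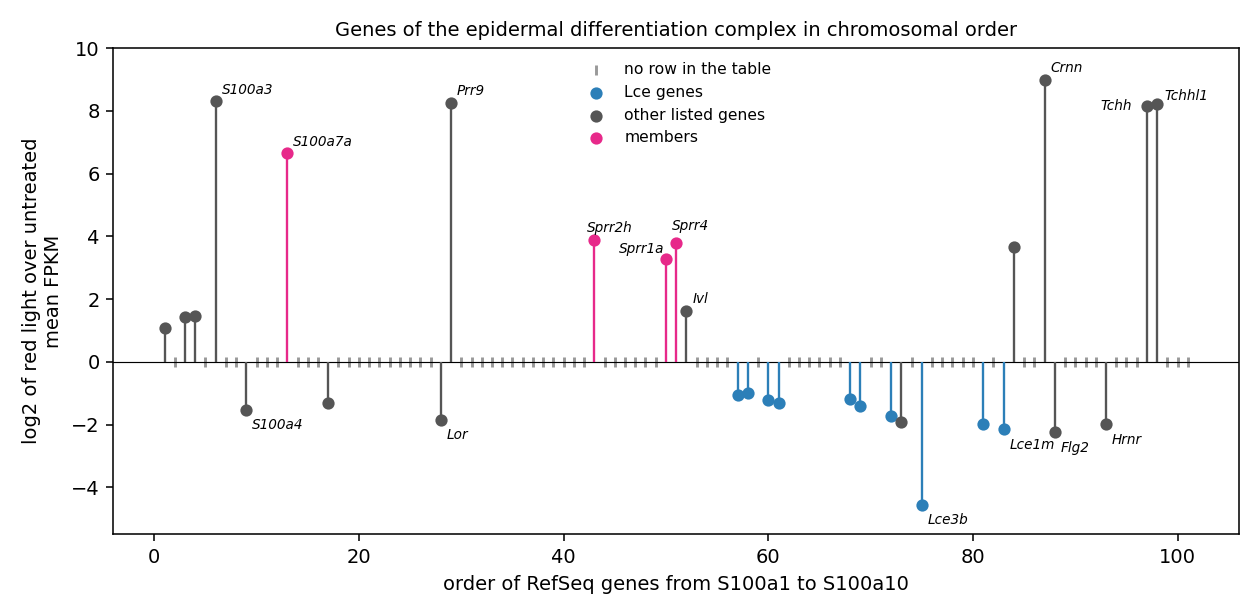
Log2 of red light over untreated mean FPKM for RefSeq genes in their order from S100a1 to S100a10, with members in pink, Lce genes in blue, other listed genes in grey and genes with no row as ticks on the zero line. The 3 Sprr members and Ivl stand above 0, and the 11 listed genes after Ivl, 10 of them Lce genes, stand below it.

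A list of envelope cross-linking and plaque genes, which also holds secreted and lipid barrier proteins, went both ways. Of 23 such genes looked up, 12 had a row, 6 higher and 6 lower in red light skin. The 6 higher were Tgm3, Cnfn, Evpl, Klk7, Tgm1 and Cstb, with ratios from 15.3 down to 2.01. The 6 lower were Krtdap, Alox12b, Aloxe3, Sbsn, Spink5 and Dmkn. Some of these are named after their values were seen. The list mixes these kinds, so its split says nothing of Sprr partners as a group. The median log2 ratio of the 12 was −0.01, but this is only the midpoint between Cstb (1.01) and Dmkn (−1.04). None of the 12 lay between these, so the median stands for no gene. It becomes 0.34 when hair shaft and inner root sheath genes are left out of the total. Tgm3, a transglutaminase of upper epidermis and inner root sheath, had 37.97 FPKM in red light skin and 2.49 FPKM in untreated skin, a ratio of 15.3. This was the only ratio of the 12 above those of the 3 Sprr genes. Tgm1, the other transglutaminase of the list with a row, named here for that reason after its values were seen, had 63.2 FPKM in red light skin and 30.4 FPKM in untreated skin. Krtdap and Sbsn, secreted proteins of differentiating epidermis, were 3.21-fold and 2.45-fold lower in red light skin. Dmkn, another such protein, was 2.05-fold lower, and Alox12b, a lipoxygenase of the lipid barrier, was 3.67-fold lower.

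Genes of the upper epidermis also went both ways. Of 15 suprabasal genes looked up, 11 had a row, 5 higher and 6 lower in red light skin. The median log2 ratio was −1.10 against −1.21 over all rows. With no rows under about 2-fold, a small majority of lower rows sets a median just past that limit, so nothing is read from this closeness. Krt10, a main keratin of these layers, had 380 FPKM in red light skin and 1600 FPKM in untreated skin, so epidermal differentiation markers were present in both groups. Krt77, a suprabasal keratin, and the calmodulin-like genes Calm4 and Calm5 were 5.40-fold, 2.14-fold and 5.78-fold lower in red light skin. Mt4, a metallothionein of stratified epithelia, had 377 FPKM in red light skin and 37.2 FPKM in untreated skin. Its ratio of 10.2 was the only one of this list to exceed that of Sprr1a, and none of the 11 exceeded those of Sprr2h, Sprr4 or S100a7a.

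Genes of stressed and wounded epidermis are the first of the settings in which Sprr genes and S100a7a are known. Of the 39 genes looked up, 14 had a row, 6 higher and 8 lower in red light skin. The median log2 ratio was −1.20, the midpoint of Il36g (−1.04) and Plaur (−1.36). Its closeness to that of all rows again follows from the listing limit, and nothing is read from it. Krt17 and Krt6a, keratins of wounded epidermis and of the follicle's outer layers, had 1436 and 507 FPKM in red light skin and 491 and 189 FPKM in untreated skin. Krt6b, their close relative, had 4.81 FPKM in red light skin and 85.6 FPKM in untreated skin, and it was added here after its values were seen because it differs from them. Krt6a and Krt6b are near-identical, so how reads were shared between them is uncertain. The only listed members of this list with larger ratios than the Sprr genes were Gjb2 and Gjb6, gap junction connexins, at 45.1 and 25.6. None exceeded S100a7a. The largest absolute log2 ratio of the list was that of Il20, a cytokine of keratinocytes, at low levels in both groups. It had 0.010 FPKM in red light skin and 0.46 FPKM in untreated skin.

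Signals and factors that are known to induce such genes in keratinocytes are given beside the 61.3% of all rows that were lower in red light skin. Of 16 genes looked up in the Il17 and Il22 axis, which drives S100 genes in keratinocytes, 7 had a row. All 7 were lower in red light skin, with a median of 4.59-fold, and Il22 was among those without a row. Il1b had 5.79 FPKM in red light skin and 26.5 FPKM in untreated skin, and Il17a had 0.103 FPKM in red light skin and 0.543 FPKM in untreated skin, low values whose depth is unknown. Il17f had 0.19 FPKM in red light skin and 1.03 FPKM in untreated skin, and the regulators Nfkbiz and Zc3h12a were 3.44-fold and 2.08-fold lower. Of 25 AP-1 and keratinocyte transcription factors looked up, 10 had a row, 4 higher and 6 lower, a share of lower genes near that of all rows. Jun, Junb and Jund had no row. Fos and Fosb, AP-1 subunits that also react within minutes to handling, had 16.1 and 3.34 FPKM in red light skin and 259 and 156 FPKM in untreated skin. Klf4, a factor of barrier formation, was 2.66-fold lower. The 4 higher genes, named after their values were seen, were Nfe2l3, Ovol1, Zfp750 and Grhl1, with ratios of 5.83, 3.10, 2.61 and 2.22. Of 18 NRF2 targets looked up, genes of the antioxidant response, 8 had a row, 5 higher and 3 lower. Nqo1 and Hmox1 were among those without a row. Slc7a11 and Gpx2 led the 8 with ratios of 8.87 and 7.70, and none exceeded any member's ratio. Txnrd1 had a ratio of 2.25, while Gstm1 and Gsta3 were 2.36-fold and 2.11-fold lower.

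Genes of the growing follicle are the second setting, and nearly all that had a row were higher. All 15 listed hair shaft keratins were higher in red light skin, where the median ratio was 299 and the smallest 33.2, so each lay above all 3 Sprr genes. Krt40 and Krt82 had the largest ratios, 625 and 526, and Krt33a, Krt34 and Krt86 the highest levels, with ratios of 326, 380 and 403. S100a7a lay above 3 of the 15, Krt36, Krt32 and Krt84, and below the other 12. Of 15 listed inner root sheath and companion layer genes 14 were higher, at a median ratio of 297, and Krt71 had 4460 FPKM in red light skin and 14.9 FPKM in untreated skin. Krt25, Krt27 and Krt73 had ratios of 330, 307 and 375. The exception, Krt79, had 179 FPKM in red light skin and 362 FPKM in untreated skin. Krt79 was put in this list but is not a specific marker of either layer. Of 18 listed follicle matrix and cycle regulators 17 were higher, at a median ratio of 6.48, and the Sprr genes fell inside their range, above 10 and below 8. S100a7a lay above 17 of the 18, with only Fgf5, a signal that ends hair growth, above it at 111-fold. The homeobox genes Msx2, Hoxc13 and Dlx3, which act in the hair matrix, had ratios of 72.9, 64.0 and 34.9.

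Placed side by side, the Sprr ratios of 9.72 to 14.7 lay above 12 of 14 listed stress genes and below all 15 listed hair shaft keratins, and that of S100a7a lay above all 14 and below 12 of the 15. Of those 14 stress genes 8 were lower in red light skin, so any row that was higher lay above these 8. The members were chosen with the same means known, so these places are a description only. All 4 members were at least 4-fold higher, which held for 18.2% of all rows, and nothing is read from this count either. Whether the members' transcripts came from epidermis or from follicles was not tested, since skin was measured whole.

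**Figure D3:**
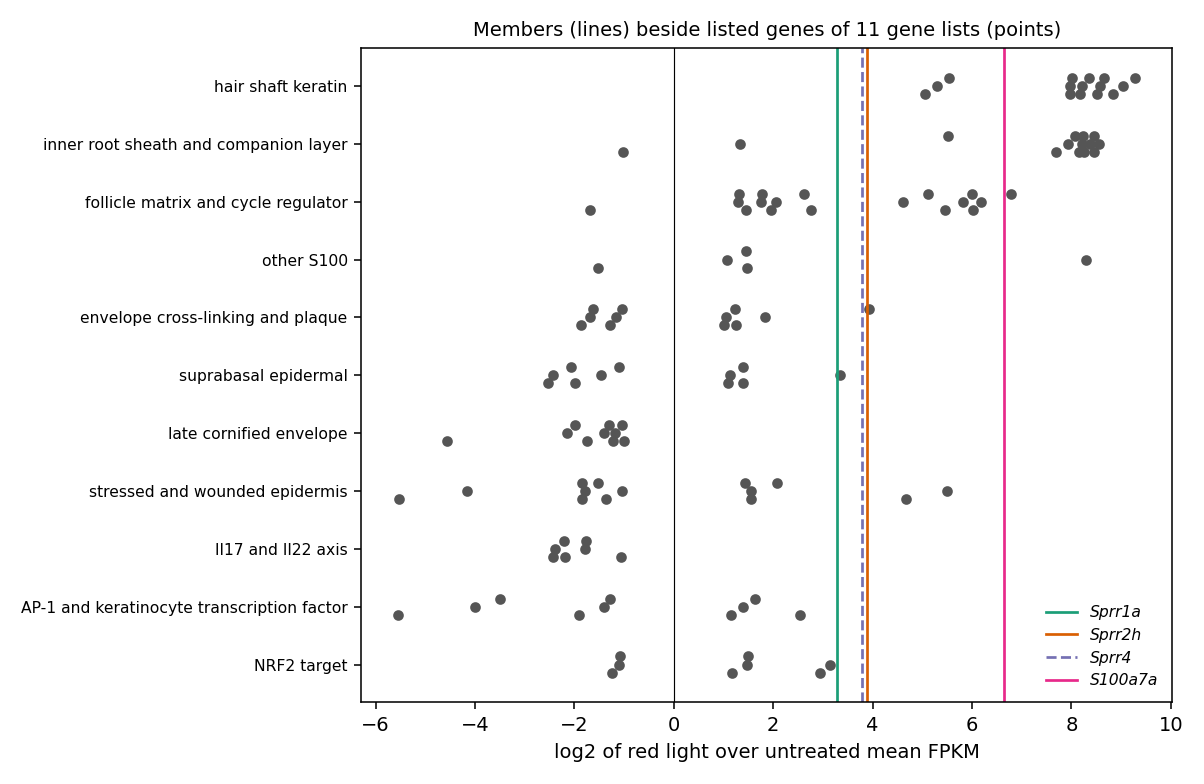
Log2 of red light over untreated mean FPKM, with 1 point for each listed gene of 11 gene lists and 1 vertical line for each member. The Sprr lines pass to the right of most stress, envelope and suprabasal genes and to the left of every hair shaft keratin, and the S100a7a line passes to the right of all stress genes. Crisp1, listed at 0 in untreated skin, is not drawn.

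Markers of other cells moved in the same table. Of 13 neutrophil genes 6 had a row and 5 of them were lower in red light skin, and the list summed to 41.2 FPKM in red light skin and 24.5 FPKM in untreated skin because of Padi4, which had 35.8 FPKM in red light skin and 3.51 FPKM in untreated skin. The defining neutrophil genes Mpo and Ltf, named here after their values were seen, had 0.0567 and 0.493 FPKM in red light skin and 0.243 and 2.11 FPKM in untreated skin. Camp, Mmp9 and Csf3r were 5.52-fold, 4.55-fold and 2.48-fold lower in red light skin. All 16 skeletal muscle genes were lower in red light skin, with a median of 5.98-fold, and summed to 3213 FPKM in red light skin and 18777 FPKM in untreated skin. Acta1, Tnnt3, Myh4 and Atp2a1 were 5.27-fold, 5.93-fold, 7.55-fold and 7.58-fold lower. No listed gene of either list was at 0, and the part of these cells in the members' values was not tested.

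The rows most like each member were sought by distance in the plane of log2 untreated and log2 red light means, that is, over 2 group means. Sprr4 had the closest company, with Fhod3, a formin that assembles actin, at a distance of 0.06, Tgm3 at 0.14 and Fam83c at 0.21. Sprr2h had Hephl1, a copper-dependent ferroxidase, at 0.21, the metal transporter gene Slc39a8 at 0.35 and again Fam83c at 0.41. S100a7a had Cryba4, a crystallin, at 0.06, with 106 FPKM in red light skin and 1.05 FPKM in untreated skin, and then Fbp1 at 0.62 and Car6 at 0.67. Sprr1a stood alone, its nearest rows being mt-Atp8, Krt17 and S100a14 at 1.19, 1.31 and 1.42. None of these 3 had a ratio above 3.47.

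**Figure D4:**
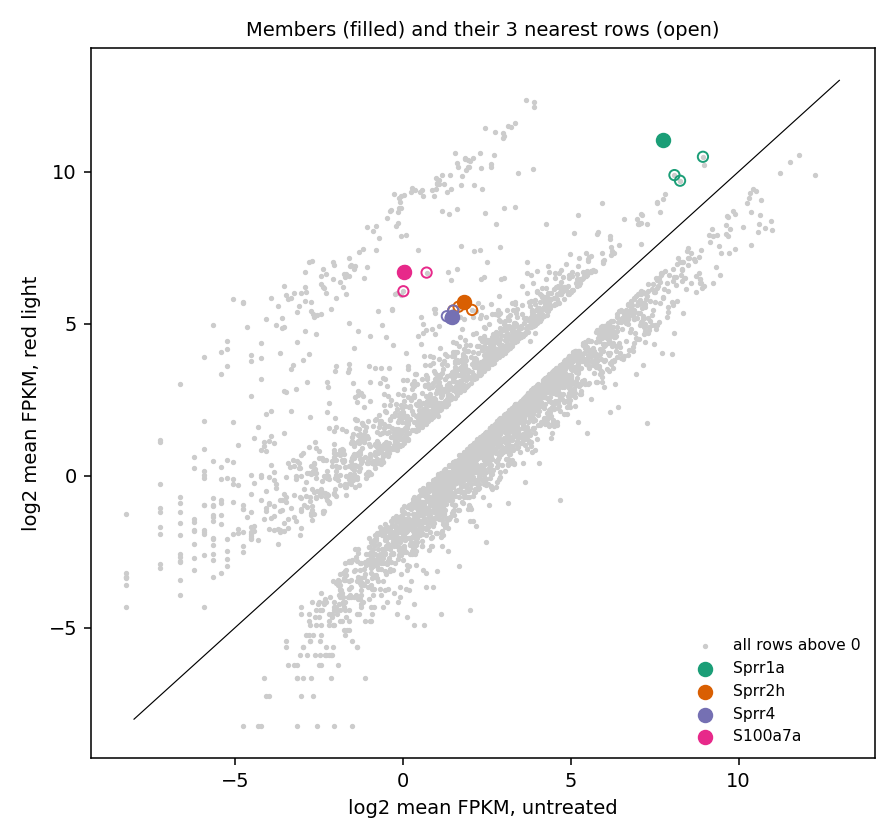
Log2 mean FPKM in red light skin (vertical axis) against untreated skin (horizontal axis) for all rows above 0, with members as filled points and the 3 nearest rows of each as open circles in the same colour. Sprr1a lies apart at the top right, Sprr2h and Sprr4 lie together, and the empty band along the line of equal levels comes from the authors' listing of genes that differ by about 2-fold or more.

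The stretches before the start sites of the 4 genes were compared as a description. The genes were chosen with their means known, so their common direction says nothing of shared control. RefSeq promoter windows (GRCm38.p6) were found for all 4, and the 250 bases before each start were searched on both strands. The motifs were TGANTCA for AP-1, TGACNNNGC for an NRF2-type antioxidant response element, CTTTGNT for a LEF/TCF-type site and TATAAA for a TATA box. The sequences shown are the windows that held a match, with matched bases in capitals. The sources used here do not name the build of the authors' files.
Sprr1a, chr3:92485882-92486131, minus strand: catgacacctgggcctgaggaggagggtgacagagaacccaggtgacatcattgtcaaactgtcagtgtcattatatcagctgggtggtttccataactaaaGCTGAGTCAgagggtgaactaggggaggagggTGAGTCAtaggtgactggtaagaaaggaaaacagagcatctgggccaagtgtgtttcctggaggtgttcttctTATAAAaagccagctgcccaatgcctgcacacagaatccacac
Sprr2h, chr3:92385435-92385684, plus strand: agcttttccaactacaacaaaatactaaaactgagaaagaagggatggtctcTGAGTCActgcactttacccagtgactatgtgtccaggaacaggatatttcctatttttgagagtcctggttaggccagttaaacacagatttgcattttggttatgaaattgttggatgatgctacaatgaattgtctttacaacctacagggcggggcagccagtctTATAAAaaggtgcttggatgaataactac
Sprr1a held 2 AP-1 matches, beginning 146 and 116 bases before the start, and Sprr2h held 1, beginning 198 bases before it. At least 1 such match was present in 6.75% of the 32851 windows of this length in the table, and 2 or more in 0.338%. The NRF2-type match in Sprr1a, present in 10.2% of windows, contains the whole of the AP-1 match farther from the start. Both genes had a TATAAA, 43 bases before the start in Sprr1a and 29 in Sprr2h, and 12.4% of windows held one on either strand. No window of the 4 held CTTTGNT, which 15.98% of all windows did. The windows of Sprr4 and S100a7a held none of these letters. The Sprr4 model begins at its coding sequence and the RefSeq span of S100a7a begins before the start used, so both windows may lie away from the start that skin uses. A match is a description of letters, and no binding was measured.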

How the data were processed

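Polyadenylated RNA of dorsal skin was sequenced, per the labels' protocols, from 1 GEO sample per group. Per the file headers, the deposited table holds a mean FPKM for either group, made by the authors, and an UP or DOWN label. RSEM, DESeq2 1.40.2, Bowtie2 2.2.8 and R 4.3.1 are named in the submitters' processing notes without roles; the genome build, the listing criteria and strand-specific counting are not given in the sources used here. Depth is unknown, so no interval or floor is given. Ratios are red light over untreated means without a pseudocount, and directions follow the means. The 4 genes and the 15 gene lists were chosen with earlier results of these data known. Named genes are the 4 members, the 3 highest and 2 most changed listed genes of each list, and the 3 rows nearest each member; others were chosen after their values were seen or serve as examples of a count. The code for list counts and medians returned the planted values in 14 of 14 lists of simulated tables, which checks its arithmetic only. Python 3.11.15, numpy 2.4.6, pandas 2.3.3 and matplotlib 3.10.9 were used. The planned test on single libraries was not run, since single library values were not used here.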

Additional observations from a re-analysis of the deposited data

How the results depend on the processing

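Moved here means a change of more than 1.5-fold. No member reversed, which pseudocounts cannot do by construction, and both scalings and a pseudocount of 0.1 moved none. A pseudocount of 1 FPKM moved S100a7a to a log2 ratio of 5.68, and moved the list medians of the Il17 and Il22 axis (−1.16), inner root sheath (7.39), hair shaft (7.53) and neutrophil genes (−1.01). With hair shaft and inner root sheath genes left out of the total, the cross-linking and plaque median changed sign (0.34 in place of −0.01). That median fell in the empty band between higher and lower rows, so nothing is read from its sign. A minimum of 1 FPKM moved none. Leaving out 6 collagen and Tgfb1 rows with means at odds with their label or rank, an alternative chosen after seeing the data, moved neither table count. At 4-fold or more, which lowers counts by construction, the table held 761 higher and 789 lower rows. Higher and lower counts were then 1 and 0 for other S100 genes, 1 and 0 for cross-linking, 1 and 3 for suprabasal, 3 and 2 for stressed epidermis, 11 and 0 for follicle regulator, 1 and 3 for transcription factor and 2 and 0 for NRF2 target genes. Lower counts were 2 for Lce, 1 for other complex, 4 for Il17 and Il22 axis and 0 for inner root sheath genes. Leaving out replicates was not run, since the table gives a single mean for either group. No paired analysis was possible because the columns carry no replicate numbers.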

Other observations

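The transglutaminase family, which joins Sprr proteins into the envelope, had rows beyond the 2 in the list used above, and these were picked out after their values were seen. Of 5 listed Tgm genes, 3 were higher and 2 lower in red light skin. Tgm6 had 42.6 FPKM in red light skin and 0.15 FPKM in untreated skin, a ratio of 284, which is above that of every Sprr member and of S100a7a. Tgm2, the widely expressed tissue transglutaminase, had 27.8 FPKM in red light skin and 72.2 FPKM in untreated skin. Tgm7 had 0.113 FPKM in red light skin and 2.03 FPKM in untreated skin. No spread was available for these means either.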
